A study of Mus musculus with 12 samples.

Results

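The 64 cytochrome P450 genes described here were all genes whose symbol began with Cyp and a digit in the deposited peak lists, leaving out the Cyp26 genes and Cyp2e1. They were chosen by name, whatever the position or strength of their peaks, out of 14146 genes with at least 1 peak. RefSeq lists 95 protein-coding mouse genes under the same naming rule, so 31 of them had no peak in any library. The 64 with a peak are 67.4% of the 95. Over the genome the share is 64.6% when the 14146 genes, not filtered by gene type, are set against 21900 protein-coding genes. Hippocampal DNA was measured by MeDIP-Seq, in which fragments carrying 5-methylcytosine are pulled down with an antibody and sequenced, so that a peak marks a methylated stretch of DNA. The mice were adult C57BL/6J males of postnatal day 70. They formed 4 groups with 2 enriched libraries and 1 input library each, where input is DNA sequenced without the antibody step. Control mice received neither treatment. Ethanol mice were born to dams that drank a 10% ethanol solution by choice during pregnancy and for some days after birth. Stress mice spent 3 h of each day apart from the dam between postnatal days 2 and 14. Ethanol + stress mice had both treatments. The labels name no transgene or deletion. Peaks of each library were called against the single input of its group, so a difference between groups and a difference between inputs cannot be told apart. A peak list holds no transcript levels, and the tissue label could not be checked against marker genes.

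P450 enzymes are heme proteins that insert an oxygen atom into lipids, steroids and drugs, with electrons delivered by P450 oxidoreductase or, in mitochondria, by ferredoxin. Many of the genes lie in tandem clusters that arose by duplication and are read mainly in liver, kidney, lung or steroid-producing glands. A few have known roles in brain: Cyp46a1 hydroxylates cholesterol in neurons and so provides the main route by which the brain disposes of it, Cyp7b1 acts on oxysterols and neurosteroids, and Cyp19a1 is aromatase, which makes estradiol from testosterone. Methylation of cytosine in mammals is found mostly at CG dinucleotides, and the antibody used in MeDIP pulls down DNA with several methylated cytosines more readily than DNA with one.

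The sequences under 6 of the P450 peaks are given here because the results below turn on them. Each is the 201 bp window around the median summit on the plus strand of mm10, the genome build of the files, with CG dinucleotides in capitals. The first 4 windows belong to peaks present in all 8 libraries. Cyp2a22 (chr7:26960061-26960261) holds the strongest P450 peak, Cyp4a32 (chr4:115605766-115605966) shares a repeat with it, Cyp2c37 (chr19:39963029-39963229) has the most CG dinucleotides of these windows and Cyp3a57 (chr5:145330730-145330930) had its lowest fold enrichments in the Control libraries. The last windows, Cyp2a4 (chr7:26308325-26308525) and Cyp8b1 (chr9:121914984-121915184), are promoter peaks in an intron and in the coding exon of their genes.
Cyp2a22: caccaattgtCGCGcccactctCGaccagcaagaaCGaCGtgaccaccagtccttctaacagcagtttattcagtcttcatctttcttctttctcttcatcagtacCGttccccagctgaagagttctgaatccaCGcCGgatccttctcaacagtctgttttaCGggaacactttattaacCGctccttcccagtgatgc
Cyp4a32: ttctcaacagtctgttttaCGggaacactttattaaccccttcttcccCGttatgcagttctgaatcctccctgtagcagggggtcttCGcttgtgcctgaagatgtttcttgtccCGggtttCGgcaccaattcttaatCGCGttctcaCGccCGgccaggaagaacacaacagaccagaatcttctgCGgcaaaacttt
Cyp2c37: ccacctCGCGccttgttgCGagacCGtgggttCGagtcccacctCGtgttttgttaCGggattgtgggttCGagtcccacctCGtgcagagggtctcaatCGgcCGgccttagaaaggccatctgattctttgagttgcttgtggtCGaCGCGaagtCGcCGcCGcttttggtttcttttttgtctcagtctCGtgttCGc
Cyp3a57: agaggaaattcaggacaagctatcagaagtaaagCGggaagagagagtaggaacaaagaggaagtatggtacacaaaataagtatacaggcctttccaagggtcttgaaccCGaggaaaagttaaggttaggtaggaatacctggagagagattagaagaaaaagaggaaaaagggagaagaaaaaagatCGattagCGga
Cyp2a4: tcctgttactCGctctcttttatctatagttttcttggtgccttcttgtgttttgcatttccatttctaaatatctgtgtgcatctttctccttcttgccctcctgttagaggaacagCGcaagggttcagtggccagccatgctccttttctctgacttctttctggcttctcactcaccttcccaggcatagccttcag
Cyp8b1: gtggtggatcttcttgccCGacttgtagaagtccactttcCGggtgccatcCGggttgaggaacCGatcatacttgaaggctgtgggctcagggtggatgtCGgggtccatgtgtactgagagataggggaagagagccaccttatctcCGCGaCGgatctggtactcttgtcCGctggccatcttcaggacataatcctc
The windows held 10, 10, 19, 4, 2 and 9 CG dinucleotides in this order. Bases that the reference marks as repeats covered 100% of the first 4 windows, 10.9% of the Cyp2a4 window and 0% of the Cyp8b1 window.

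The 64 genes carried 583 peaks over the 8 libraries, 8 of which were listed under both Cyp3a41a and Cyp3a41b. Control libraries had 49 and 44 P450 peaks among 27655 and 24017 peaks, Ethanol libraries 88 and 46 among 45961 and 22805, Stress libraries 85 and 105 among 40187 and 51747, and Ethanol + stress libraries 92 and 74 among 43139 and 36173. The number of P450 peaks broadly followed the size of the list. As a share of all peaks, P450 peaks made up 0.177% and 0.183% in Control, 0.191% and 0.202% in Ethanol, 0.212% and 0.203% in Stress, and 0.213% and 0.205% in Ethanol + stress. The 4 libraries of separated mice, those of the Stress and Ethanol + stress groups, were all above the 4 libraries of unseparated mice, with 0.208% ± 0.00509 against 0.188% ± 0.0106 (SD, n = 4 each) and a difference of 0.0197 percentage points. A two-sided exact permutation test gave p = 0.0286, the smallest p that 4 against 4 libraries allow, and an adjusted p of 0.429 over the 15 tests of P450 shares and gene counts, so the difference did not pass the correction. It lost an unadjusted p under 0.05 with equal numbers of peaks per library (exact permutation p = 0.0571) and without any single separated library. Each treated group was above Control, by 0.0164 points for Ethanol, 0.0270 for Stress and 0.0287 for Ethanol + stress, where 2 against 2 libraries cannot give an exact p under 0.333. The 95% Wilson intervals of single libraries, which cover counting error only, ran from 0.134 to 0.269% and overlapped throughout. Ethanol-exposed libraries exceeded unexposed libraries by 0.00905 points (exact permutation p = 0.314, n = 4 each).

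**Figure D1:**
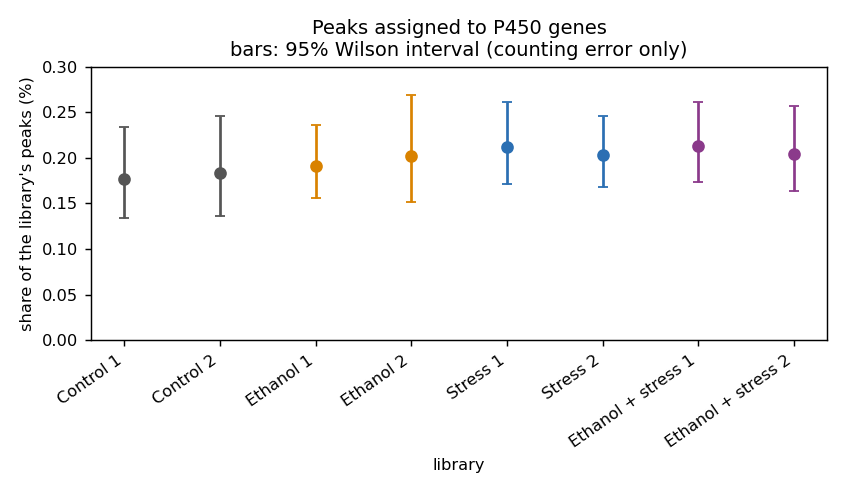
Share of each library's peaks that were assigned to P450 genes, in percent, 1 point per library colored by group, with 95% Wilson intervals as bars. The 4 separated libraries lie between 0.203 and 0.213% and the 4 unseparated libraries between 0.177 and 0.202%, with overlapping intervals.

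Peaks that overlapped by at least 1 bp across libraries were merged into regions, which gave 185 P450 regions among 91177. P450 regions were spread over the libraries much as all regions were, with 19 (10.3%) present in all 8 libraries against 9.76% of all regions, and 72 (38.9%) in a single library against 38.7%. Their surroundings differed in a descriptive way. Repeats covered at least 50% of the summit window in 74.1% of P450 regions and in 50.9% of all regions. Among regions in all 8 libraries the shares were 94.7% and 74.2%. The median number of CG dinucleotides in the window was 4 for P450 regions and 3 for all regions, and 9 and 6 among those in all 8 libraries. Intergenic P450 rows lay nearer to the start site of their gene, at a median of 29538 bp against 71076 bp for all intergenic rows.

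**Figure D2:**
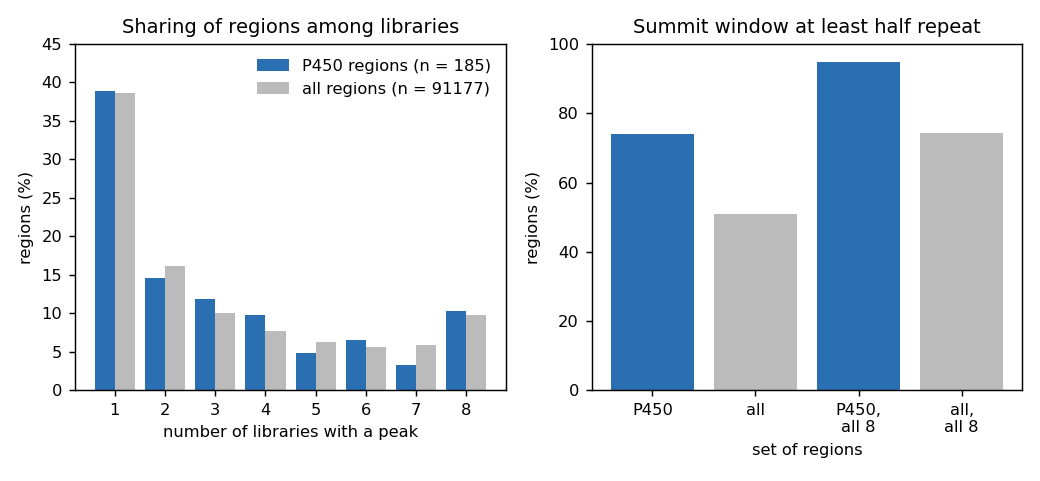
Left, percent of regions by the number of libraries with a peak; right, percent of regions whose 201 bp summit window is at least 50% repeat, for P450 regions and all regions, and for the subsets present in all 8 libraries. Sharing is alike (10.3% and 9.76% in all 8 libraries), while repeat windows make up 74.1% of P450 and 50.9% of all regions.

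Folds were not on one scale across libraries, since the median log2 fold of the regions in all 8 libraries ran from 3.13 in Ethanol 2 to 3.94 in Stress 2, with 3.41 and 3.40 in Control. Sterol and steroid genes held 5 of the 19 regions found in every library. The Cyp46a1 region (chr12:108322500-108323650) lay 11196 bp upstream of the start site, in an intron of the neighboring Hhipl1, with fold enrichments over background of 4.79 and 3.97 in Control, 10.6 and 7.12 in Ethanol, 6.99 and 9.06 in Stress, and 7.92 and 9.28 in Ethanol + stress. Both Control libraries were the lowest. The Cyp39a1 region (chr17:43722181-43723077), in an intron of this oxysterol hydroxylase gene, had folds of 9.40 and 9.37 in Control, 11.9 and 6.97 in Ethanol, 11.5 and 10.3 in Stress, and 15.4 and 6.61 in Ethanol + stress, and all groups overlapped. The Cyp7b1 region (chr3:18290029-18291231), 47091 bp upstream, had folds of 10.2 and 8.30 in Control, 17.02 and 12.3 in Ethanol, 13.3 and 13.2 in Stress, and 13.4 and 13.3 in Ethanol + stress. The Control folds were the lowest, but on centred log2 values Stress 2 (-0.22) was below Control 1 (-0.06). The Cyp19a1 region (chr9:54182172-54183421), in an intron of the aromatase gene, had folds of 11.5 and 13.8 in Control, 11.4 and 10.2 in Ethanol, 13.8 and 17.9 in Stress, and 16.9 and 11.2 in Ethanol + stress. The Cyp11a1 region (chr9:57983850-57984691) lay 30764.5 bp (median of the libraries) upstream of the gene for the cholesterol side-chain cleavage enzyme, which starts steroid synthesis. Its folds were 8.86 and 8.13 in Control, 11.3 and 8.93 in Ethanol, 12.4 and 22.2 in Stress, and 7.56 and 9.66 in Ethanol + stress, with the highest value in Stress 2, the library with the most peaks. Cyp24a1, which inactivates vitamin D, had a region in every library 4852.5 bp (median) upstream, in an intron of Pfdn4, with folds of 12.3 and 13.5 in Control, 19.8 and 13.8 in Ethanol, 12.6 and 10.9 in Stress, and 14.0 and 11.2 in Ethanol + stress.

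The highest median folds of the 19 regions were at a pair of CYP2A genes, which encode drug-metabolizing enzymes. The Cyp2a22 region (chr7:26958856-26960676), 20775 bp upstream of the gene, had folds of 35.8 and 33.9 in Control, 41.3 and 21.7 in Ethanol, 45.9 and 58.5 in Stress, and 49.2 and 36.9 in Ethanol + stress. The Cyp2a12 region (chr7:27006998-27008029), 21542 bp upstream, followed with 20.7 and 25.1 in Control, 27.1 and 10.9 in Ethanol, 33.2 and 35.7 in Stress, and 28.7 and 24.6 in Ethanol + stress. For both genes Ethanol 2, the library with the fewest peaks, was the lowest. At Cyp2d12, a gene of the drug-metabolizing CYP2D family, the region (chr15:82529487-82530242) lay 25288 bp upstream and had folds of 15.3 and 11.7 in Control, 14.9 and 15.9 in Ethanol, 21.04 and 24.8 in Stress, and 11.8 and 13.6 in Ethanol + stress. The Stress folds were the highest, but on log2 values centred on the median of each library Ethanol 2 (0.87) was above both Stress libraries (0.81 and 0.69).

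CYP2C, CYP2J and CYP4 enzymes oxidize arachidonic acid and other fatty acids, and 8 of the 19 regions belonged to them. The Cyp2c37 region (chr19:39962362-39963683), 29294 bp upstream and rich in CG dinucleotides, had folds of 18.2 and 18.8 in Control, 21.6 and 6.51 in Ethanol, 29.6 and 32.3 in Stress, and 31.1 and 21.7 in Ethanol + stress. All 4 separated libraries were above all 4 unseparated libraries. The intronic Cyp2c66 region (chr19:39130382-39131160) had folds of 19.4 and 11.1 in Control, 21.5 and 12.3 in Ethanol, 16.4 and 22.7 in Stress, and 22.4 and 18.5 in Ethanol + stress. Past the end of Cyp2c67 lay a pair of regions. The one at chr19:39605393-39606205 had folds of 11.5 and 7.89 in Control, 20.7 and 8.75 in Ethanol, 16.5 and 20.9 in Stress, and 13.7 and 23.7 in Ethanol + stress. Its neighbor at chr19:39606562-39607345 had 9.47 and 6.62 in Control, 11.9 and 6.79 in Ethanol, 12.4 and 17.1 in Stress, and 7.23 and 6.99 in Ethanol + stress. In Ethanol + stress 2 the former was well above the latter, whereas Control values of the pair were close. The Cyp2j13 intron region (chr4:96048584-96049275) had folds of 9.40 and 8.19 in Control, 10.1 and 5.82 in Ethanol, 7.89 and 11.6 in Stress, and 5.62 and 9.58 in Ethanol + stress. The Cyp2j5 region (chr4:96721152-96721853), 57355 bp upstream and without a CG dinucleotide in its summit window, had folds of 15.7 and 10.6 in Control, 17.2 and 10.2 in Ethanol, 9.25 and 10.3 in Stress, and 12.7 and 8.43 in Ethanol + stress. At Cyp2j13 the groups overlapped, while at Cyp2j5 both Stress libraries were below both Control libraries. The Cyp4a32 intron region (chr4:115605328-115606711) had folds of 13.02 and 13.7 in Control, 29.5 and 17.7 in Ethanol, 18.6 and 31.5 in Stress, and 23.1 and 25.9 in Ethanol + stress, so that both Control libraries were below all others. The Cyp4v3 intron region (chr8:45330380-45331173) had folds of 10.2 and 7.30 in Control, 5.35 and 9.42 in Ethanol, 9.25 and 12.4 in Stress, and 9.55 and 10.7 in Ethanol + stress, with overlapping groups.

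CYP3A enzymes oxidize steroids and many drugs, and their cluster is flanked by the remaining 2 regions. The Cyp3a57 region (chr5:145330009-145331752), 14439 bp upstream, had folds of 8.23 and 10.7 in Control, 28.5 and 15.1 in Ethanol, 18.9 and 22.8 in Stress, and 29.7 and 15.2 in Ethanol + stress. Both Control libraries were below the 6 treated libraries. The Cyp3a25 region (chr5:146038440-146039594), 29553 bp upstream, had folds of 4.98 and 7.30 in Control, 19.6 and 7.33 in Ethanol, 7.58 and 17.6 in Stress, and 6.84 and 7.85 in Ethanol + stress, with high values only in Ethanol 1 and Stress 2, the libraries with the most peaks.

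**Figure D3:**
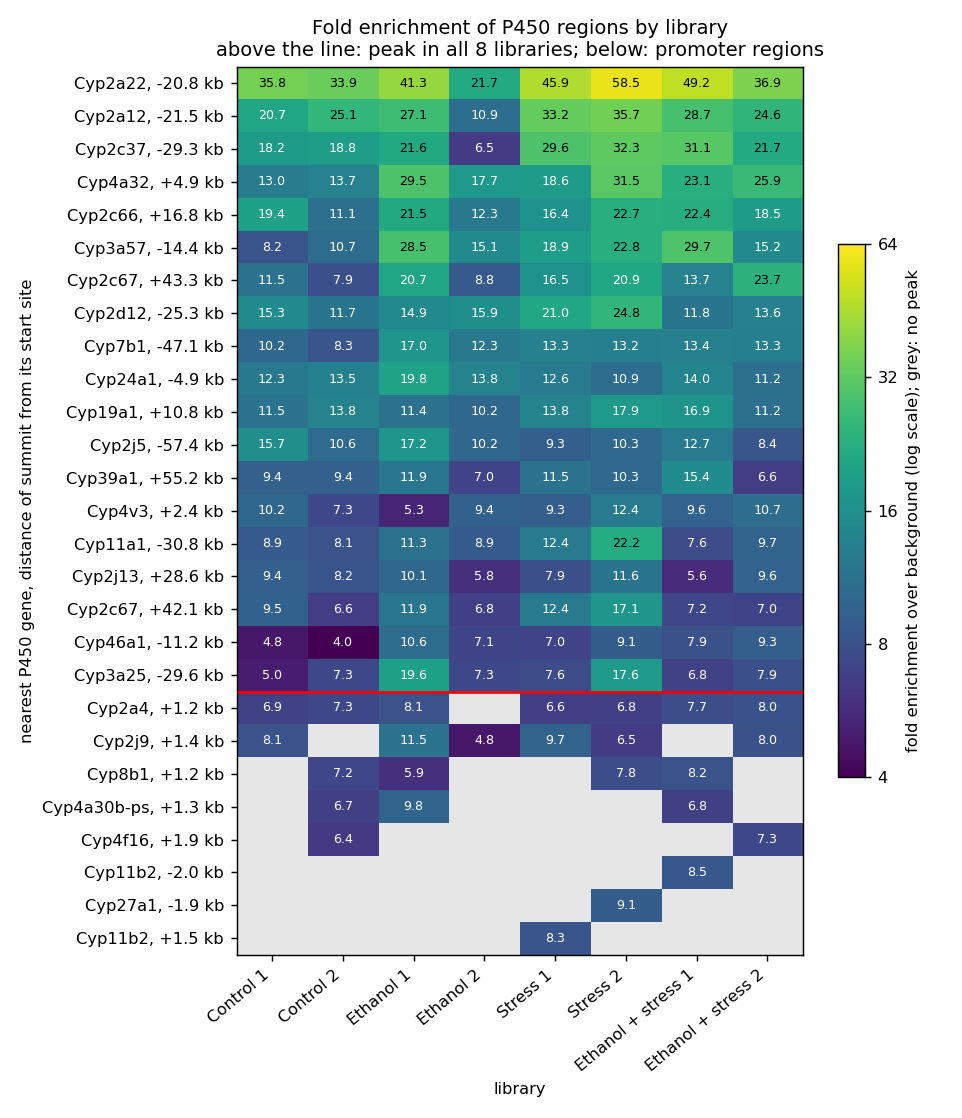
Fold enrichment over background, printed in each cell and colored on a log scale, of the 19 P450 regions present in all 8 libraries (above the red line) and of the promoter regions (below it), with libraries in columns and no peak in grey. Cyp2a22 has the highest folds (21.7 to 58.5), and no promoter region has a peak in every library.

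The fold enrichments were compared between groups with limma on log2 values centred on the median of each library, over the 8901 regions present in all 8 libraries. Of these, 104 (1.17%) passed an adjusted p of 0.05 for Ethanol against Control, 319 (3.58%) for Stress, 204 (2.29%) for Ethanol + stress, 223 (2.51%) for separated against unseparated libraries and 120 (1.35%) for ethanol-exposed against unexposed libraries. None of the 19 P450 regions passed in any of these comparisons, while 5, 2, 4, 4 and 3 of them were under 0.05 in limma before adjustment, where 13.1, 18.1, 15.4, 16.8 and 14.2% of all regions were. Nearest to the threshold were Cyp2c37 for separation and Cyp3a57 for Ethanol + stress and Ethanol. Cyp3a57 was higher by 1.06 ± 0.31 (log2 difference ± SE) in Ethanol and by 1.01 ± 0.31 in Ethanol + stress than in Control. The limma adjusted p for Cyp3a57 was 0.0731 and 0.0678. In Stress it was higher by 0.79 (limma adjusted p = 0.144). Cyp2c37 was higher by 0.72 ± 0.22 in separated than in unseparated libraries (limma adjusted p = 0.0666). Centred log2 values of Cyp2c37 were 0.77 and 0.83 in Control, 0.58 in Ethanol 1 and -0.42 in Ethanol 2. The Cyp2c37 difference between separated and unseparated libraries drew most on Ethanol 2. It was 0.97 without Ethanol 1 (limma adjusted p = 0.0242), which passed, and 0.47 without Ethanol 2 (limma adjusted p = 0.331). Cyp46a1 was 0.92 ± 0.30 above Control in Ethanol (limma adjusted p = 0.121) and 0.81 above it in Ethanol + stress (limma adjusted p = 0.139). Cyp4a32 was 0.69, 0.50 and 0.71 above Control in Ethanol, Stress and Ethanol + stress, and Cyp2j5 was 0.59 lower in separated libraries (log2 difference -0.59, limma adjusted p = 0.121). The comparisons with Control share the 2 Control libraries. The median log2 difference of the 19 regions was 0.10 for Ethanol, 0.24 for Stress, 0.06 for Ethanol + stress, 0.14 for separation and -0.02 for ethanol exposure, beside medians between -0.018 and 0.0027 over all regions.

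Promoter peaks, with a summit within 2000 bp of the start site, were few. They were found at 7 of the 95 P450 genes (7.37%). Over the genome 2343 genes had one, which is 10.7% when set against 21900 protein-coding genes. The 2343 genes were not filtered by gene type, so this percent is not limited to protein-coding genes. None of the 7 had a promoter peak in all 8 libraries, compared with 9.73% of all genes that had a promoter peak. Cyp2a4, whose enzyme hydroxylates testosterone, had an intronic peak 1234 bp past the start site (chr7:26307907-26308885) with folds of 6.89 and 7.30 in Control, 8.13 in Ethanol 1, 6.65 and 6.78 in Stress, and 7.66 and 8.03 in Ethanol + stress, and no peak in Ethanol 2. The Cyp2j9 intron peak (chr4:96589768-96590445), 1449 bp past the start site, had folds of 8.15 in Control 1, 11.5 and 4.80 in Ethanol, 9.70 and 6.53 in Stress and 7.97 in Ethanol + stress 2. No peak was called there in Control 2 or Ethanol + stress 1. At Cyp8b1, a sterol hydroxylase gene of bile acid synthesis, the peak in the coding exon (chr9:121914907-121915479) had folds of 7.20 in Control 2, 5.90 in Ethanol 1, 7.78 in Stress 2 and 8.16 in Ethanol + stress 1. Each group therefore had this peak in 1 of its 2 libraries. The other promoter peaks were rarer. Cyp4a30b-ps, for which RefSeq uses the name Cyp4a30b, had one in 3 libraries, Cyp4f16 in 2, Cyp27a1, a mitochondrial sterol hydroxylase gene, in Stress 2 alone, and Cyp11b2, the aldosterone synthase gene, in Stress 1 and in Ethanol + stress 1 at different positions. At no P450 gene did both libraries of a treated group have a promoter peak and neither Control library have one. The number of P450 genes with a promoter peak was 2 and 4 in Control, 4 and 1 in Ethanol, 3 and 4 in Stress, and 4 and 3 in Ethanol + stress, and the groups overlapped.

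Start regions of P450 genes are poor in CG dinucleotides. Of the 95 genes, 73 matched the RefSeq promoter table, which covers 250 bases before and 50 after each start in GRCm38. These windows held a median of 3 CG dinucleotides, against 8 over 27025 genes. At least 10 were found in 9 of the 73 (12.3%) and in 45.8% of all genes. Cyp46a1 had the most, 31, followed by Cyp51 with 28, and neither gene had a promoter peak in any library. Among the genes with a promoter peak, Cyp27a1 had 10, Cyp2j9 6, Cyp8b1 5, Cyp4a30b 3, Cyp4f16 2 and Cyp2a4 1.

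Gene-body peaks were found at 28 of the 64 genes, which is 29.5% of the 95 P450 genes in RefSeq. Over the genome 7335 genes, not filtered by gene type, had one, which is 33.5% when set against 21900 protein-coding genes. Cyp39a1, Cyp2c66, Cyp2j13, Cyp4a32, Cyp4v3 and Cyp19a1 had them in all 8 libraries, which is 21.4% of the 28 genes against 25.3% of all genes with a gene-body peak. Cyp4f17 had them in 7 libraries, and Cyp46a1, Cyp2c38 and Cyp2c54 in 6 each. Counted per library, 11 and 12 P450 genes had a gene-body peak in Control, 17 and 14 in Ethanol, 13 and 16 in Stress, and 17 and 15 in Ethanol + stress. By count, every treated library was above both Control libraries. The means were 11.5 ± 0.707 in Control, 15.5 ± 2.12 in Ethanol, 14.5 ± 2.12 in Stress and 16 ± 1.41 in Ethanol + stress (SD, n = 2 each), and each comparison with Control gave the smallest exact permutation p that 2 against 2 libraries allow, 0.333 (adjusted 0.556). Over all genes, 3513 and 3270 had a gene-body peak in Control, 5020 and 3071 in Ethanol, 4574 and 5447 in Stress, and 4882 and 4281 in Ethanol + stress, so that only Ethanol 2 was below Control. As a percent of these genes, P450 genes made up 0.313 and 0.367 in Control and 0.339 and 0.456 in Ethanol. The values were 0.284 and 0.294 in Stress, below both Control libraries, and 0.348 and 0.350 in Ethanol + stress, between the Control libraries. With equal numbers of peaks per library, the difference of Stress from Control turned to -0.50 genes. By class, promoter rows made up 4.23% of P450 rows, gene-body rows 25.2% and intergenic rows 70.6%, compared with 2.80%, 25.7% and 71.5% of all rows. Peaks of any class were present in all 8 libraries for 20 P450 genes (31.3%) and for 43.1% of all genes with a peak.

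In all, 6 groups of at least 4 P450 genes with a peak lay together with gaps under 500 kb. Genes without a peak did not count towards a group. The CYP4A genes on chromosome 4, where only Cyp4a12b, Cyp4a30b-ps and Cyp4a32 had a peak, therefore formed none. Each span ran between genes with a peak, so its density was not free of that choice and is descriptive only. In the Cyp2d group on chromosome 15, Cyp2d12 had the most peaks. The density of merged regions was highest in this group, at 50.4 regions per Mb (11 regions in 218 kb) against 33.5 over the genome. It was below the genome in the Cyp4f group on chromosome 17 (27.9, most peaks at Cyp4f16), the Cyp3a group on chromosome 5 (27.1, Cyp3a57), the Cyp2b group on chromosome 7, which also holds Cyp2a, Cyp2f and Cyp2s genes (24.8, Cyp2a22), the Cyp2j group on chromosome 4 (22.5, Cyp2j13) and the Cyp2c group on chromosome 19 (19.5, Cyp2c67). The Cyp3a group, which spans 664 kb, had 1 and 2 peaks in Control, 6 and 3 in Ethanol, 7 and 8 in Stress, and 8 and 8 in Ethanol + stress. No treated library was as low as either Control library. Per 10000 peaks of the library, these were 0.362 and 0.833 in Control, 1.31 and 1.32 in Ethanol, 1.74 and 1.55 in Stress, and 1.85 and 2.21 in Ethanol + stress. Within this span the groups remained apart after this division. No test was run because the cluster was singled out after its values were seen. The span leaves out the peaks upstream of Cyp3a57 and Cyp3a25. Counted by assigned gene, CYP3A genes had 4 and 6 peaks in Control and 12 and 7 in Ethanol. They had 11 and 12 in both Stress and Ethanol + stress. By these counts Control 2, with 6 among 24017 peaks, had a larger share than Stress 2, with 12 among 51747. The Cyp2c group ranged from 2.63 to 3.71 per 10000 peaks and the Cyp2d group from 1.16 to 1.66, with Control within the range of the treated libraries. Genes within a cluster are near-copies of each other, and reads that fit several copies could not be traced in the peak lists. The 8 peaks listed under both Cyp3a41a and Cyp3a41b were given the same start site for both genes, while other Cyp3a41a peaks were given a different one, and the values of this pair are therefore uncertain.

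**Figure D4:**
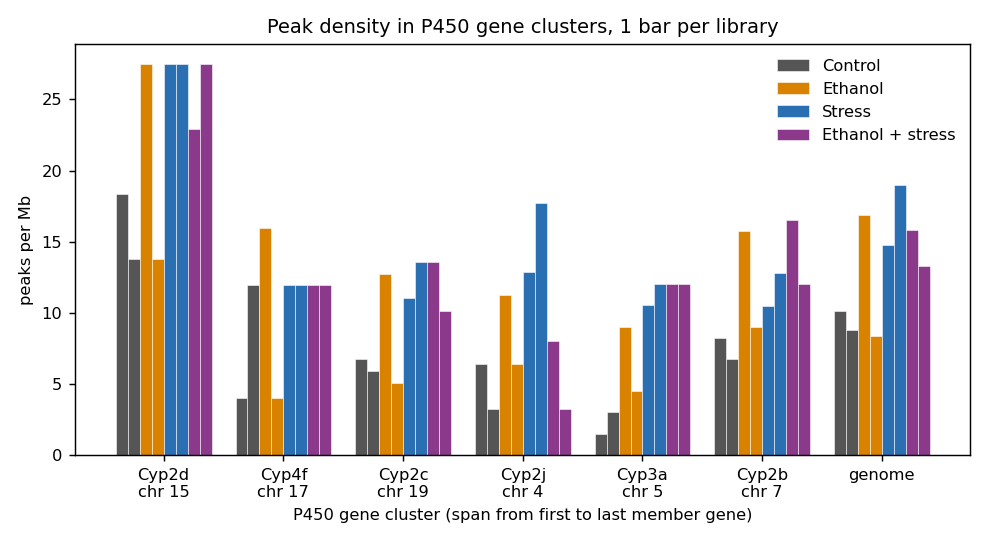
Peaks per Mb in 6 P450 gene clusters and over the genome, 1 bar per library colored by group, Control, Ethanol, Stress and Ethanol + stress from left to right. In the span of the Cyp3a cluster the Control libraries have 1.51 and 3.01 peaks per Mb and the treated libraries 4.52 to 12.04. This span leaves out the peaks upstream of Cyp3a57 and Cyp3a25. The genome bars also differ with the size of each list.

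A region was called gained when both libraries of a treated group had a peak and neither Control library did, and lost in the opposite case. In Ethanol, 7 of 112 P450 regions were gained (6.25%), against 4.31% of all regions, and 0 were lost, against 1.42%. In Stress, 24 of 144 were gained (16.7%), against 11.8% of all regions, and 1 was lost (0.694%), against 1.12%. In Ethanol + stress, 18 of 124 were gained (14.5%), against 8.25% of all regions, and 0 were lost, against 0.976%. The treated libraries mostly had longer peak lists than Control. With every list held to its 22805 strongest peaks, gained regions numbered 3 (3.90%, all regions 2.74%), 5 (6.10%, all regions 4.92%) and 6 (7.79%, all regions 3.65%), and lost regions 1 (1.30%, all regions 3.78%), 3 (3.66%, all regions 4.68%) and 1 (1.30%, all regions 3.49%). Of the gained regions, 2 of 7, 5 of 24 and 5 of 18 were gained under both settings. Gained P450 regions had median folds of 7.07, 7.12 and 7.03, where the median fold of all peaks was 6.97 to 8.22 in the 8 libraries.

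**Figure D5:**
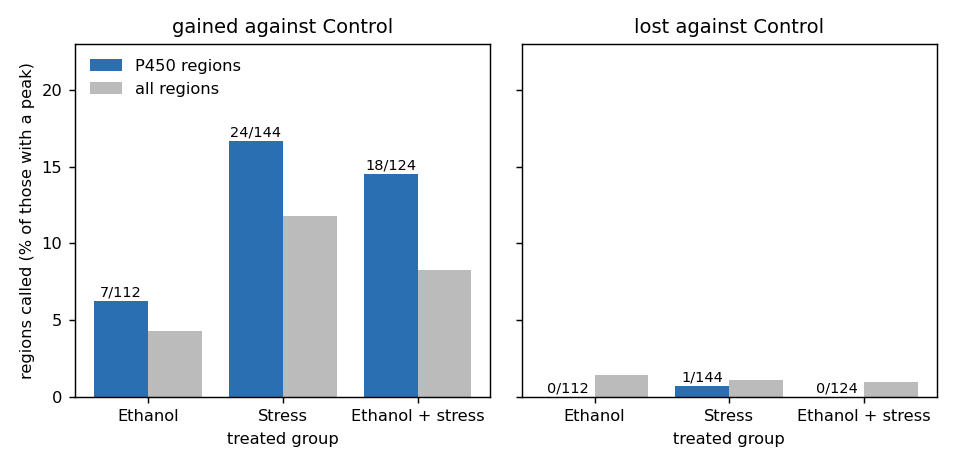
Percent of regions gained (left) or lost (right) against Control in each treated group, for P450 regions (blue, with called over tested regions) and all regions (grey). The P450 bars for gained regions reach 6.25, 16.7 and 14.5%, beside 4.31, 11.8 and 8.25% for all regions.

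Sterol genes were among those gained. Cyp51 encodes lanosterol demethylase of cholesterol synthesis. One Cyp51 region (chr5:4133502-4134352), 29242 bp upstream, had no peak in Control and folds of 6.45 and 9.11 in Ethanol, 4.37 and 7.99 in Stress, and 7.12 and 6.60 in Ethanol + stress. It was the only P450 region with a peak in all 6 treated libraries and neither Control library (0.541% of 185), where all regions had 0.565%. Another Cyp51 region (chr5:4051412-4052056), in an intron of the neighboring Akap9, was gained in Ethanol, with folds of 9.86 and 9.11, and in Ethanol + stress, with 7.56 and 8.43, and had a fold of 8.22 in Stress 2. Next to it, a Cyp51 region (chr5:4052335-4053173) was gained in Stress, with folds of 5.18 and 6.95, and had a fold of 10.2 in Ethanol 1. The region upstream of Cyp7a1, the rate-limiting enzyme of bile acid synthesis, was gained in Ethanol with folds of 6.37 and 6.61, and it also had a peak in Stress 2 (8.22) and in Ethanol + stress 1 (8.16). For Cyp8b1 a region 2434 bp past the start site (chr9:121913451-121914155) had folds of 6.99 and 5.35 in Stress and 6.77 and 7.51 in Ethanol + stress, and no peak in the 4 unseparated libraries. Steroid synthesis genes had 1 gained region each at Cyp17a1 in Stress, where the summit lay in a coding exon of Wbp1l, and at Cyp19a1 in Ethanol + stress. Cyp1b1, which oxidizes aromatic hydrocarbons and estrogens, gained 1 region in Ethanol + stress.

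Separated libraries alone, all 4 of them and none of the 4 unseparated, had a peak in 3 of 185 P450 regions (1.62%), against 0.406% of all regions, a rule added after the data were seen. Beside the Cyp8b1 region these were a region at Cyp2d9 (chr15:82445698-82446878), with folds of 6.18 and 6.396 in Stress and 5.58 and 5.40 in Ethanol + stress, and one upstream of Cyp3a11 (chr5:145930979-145931521), with 9.53 and 6.46 in Stress and 4.82 and 4.55 in Ethanol + stress. Under equal numbers of peaks none of these was among the gained regions kept in Stress or Ethanol + stress. The corresponding rule for ethanol-exposed libraries found 1 region (0.541%, all regions 0.0834%), past Cyp3a41a (chr5:145675179-145675897), with folds of 4.83 and 5.32 in Ethanol and 7.01 and 6.39 in Ethanol + stress.

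The remaining gained regions lay at drug and fatty acid genes. The CYP2C genes had them at Cyp2c66 (2 regions), Cyp2c38 (2), Cyp2c37 (2) and Cyp2c54 (1), and the CYP2J genes at Cyp2j13 (2), Cyp2j12 (2) and Cyp2j11 (1). Cyp4a12b had 2, and Cyp4a32 and Cyp4f16 had 1 each. The Cyp4f16 region (chr17:32523562-32524171), in an intron of Cyp4f17, had folds of 9.70 and 9.91 in Stress and 10.2 and 7.87 in Ethanol + stress, with 9.08 in Ethanol 1, and was gained under equal numbers of peaks in both groups. In the Cyp3a group, Cyp3a16, Cyp3a41a and Cyp3a25 had further gained regions, and the region shared by Cyp3a41a and Cyp3a41b (chr5:145566173-145566879) had folds of 9.66 and 5.50 in Ethanol and 6.25 and 5.04 in Ethanol + stress. On chromosome 7, gained regions lay at Cyp2s1 (2), Cyp2f2 (2), Cyp2b10, Cyp2a4 and Cyp2a5 (1 each). The only lost region, in an intron of Cyp2b19 (chr7:26769024-26769928), had folds of 8.57 and 6.12 in Control, 6.61 in Ethanol 2 and 7.47 in Ethanol + stress 1, and no peak in either Stress library. It was also lost in Stress under equal numbers of peaks.

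Several of the regions in all 8 libraries shared sequence with each other. Of their 171 pairs, 24 had an identical run of at least 30 bases on the same or the opposite strand, and 15 of the 19 regions took part. Pairs of other regions were not searched, and repeats were also common among all regions present in all 8 libraries. Whether such sharing is more frequent at P450 genes than elsewhere was therefore not tested. The longest runs were 142 bases for Cyp4a32 and Cyp2a22, 125 for Cyp4a32 and Cyp11a1, 124 for Cyp2a22 and Cyp11a1, and 119, on opposite strands, for Cyp2c67 and Cyp3a57. These genes lie on different chromosomes, and repeats covered 100% of the summit window of each region. The first 30 bases of the run shared by Cyp2a22 and Cyp4a32 hold no CG dinucleotide and are shown because they allow copies to be counted.
shared run: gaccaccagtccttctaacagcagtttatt
This run was found in 6 of the 185 P450 regions (3.24%), at Cyp11a1, Cyp2a22, Cyp2d12 (2 regions), Cyp2j11 and Cyp4a32, and in 772 of all regions (0.847%). Among regions in all 8 libraries it was in 4 of 19 P450 regions and in 523 of 8901 regions (5.88%). The run was cut from the Cyp2a22 and Cyp4a32 regions, so its presence there was fixed in advance. These counts therefore give no measure of enrichment at P450 genes. Reads from copies of such a repeat can be hard to place, and the part this has in the folds was not tested.

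Genes that work with P450 enzymes were compared by the same counts. Among 13 electron donor and heme genes, 7 had a peak (53.8%) and 0 a promoter peak. Gene-body peaks lay at 5 of them (38.5%), Por, Fdx1, Fdxr, Cyb5r3 and Alas1. Genes of the whole genome, not filtered by type, gave 64.6% and 33.5% when set against 21900 protein-coding genes. Of the 16 receptors and factors that induce P450 genes, 5 had a promoter peak in at least 1 library: Hnf4a, Nr1h4 (the bile acid receptor), Nr5a1, Ppara and Vdr (the vitamin D receptor). Steroid enzymes outside the family had 1 of 10, Hsd11b1, which regenerates active glucocorticoid. Ptgis, the prostacyclin synthase gene and a P450 by structure, had a promoter peak in 4 libraries. The conjugating and oxidizing families had promoter peaks at 0 of 22 glucuronosyltransferase, 3 of 22 glutathione S-transferase, 2 of 21 sulfotransferase, 2 of 21 aldehyde dehydrogenase and 1 of 7 flavin monooxygenase genes, beside the 10.7% given above for the genome.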

How the data were processed

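MeDIP-Seq peak lists of 8 enriched libraries were analysed, 2 for each of 4 groups. Submitters' processing notes name HISAT2 2.1.0 and mm10. The authors ran MACS on every library separately, with input DNA of another mouse of that group as background and a q-value limit of 1e-05, and took the nearest RefSeq gene for each peak. Which MACS release wrote the files is open, because their columns are not those of the release in the methods. In the deposited lists, fold enrichment is a linear ratio over local background. The deposited q-values are on the −log10 scale. Summit tags are a deposited score (a rescaled pileup, no read count), so sequencing depth is unknown and only the length of each list is given. The 4 input libraries had no peak list, and 11 rows without a gene were left out of gene counts.

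Peaks overlapping by at least 1 bp were merged into regions. Gene features at summits came from GENCODE M21 and sequences from RefSeq GRCm38.p6, whose coordinates are those of mm10. Of 64 start sites, 55 lay within 500 bp of the RefSeq start. Shares and gene counts were compared by two-sided exact permutation over libraries with Benjamini-Hochberg adjustment over 15 tests. Folds were compared with limma 3.58.1 in R 4.3.3 on centred log2 values of 8901 regions. On simulated data for Stress against Control over 8901 regions, 89% of 200 regions changed by a log2 difference of 2 were recovered. Smaller differences, such as the 1.06 of Cyp3a57 in Ethanol, were not simulated. Python 3.11.15 with pandas 2.3.3 and scipy 1.17.1 was used.

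The members and lists were chosen with earlier results of these data known. Genes were named if they had a promoter peak, a gained or lost region, a region in all 8 libraries, the most peaks of a cluster or 1 of the 5 largest limma differences. Individual mice were processed separately according to the study's methods, and litters were split between stress and no stress. The rules requiring 4 of 4 or 6 of 6 libraries and the search for shared runs were added after the data were seen. Alternatives were equal numbers of peaks, a −log10 q of at least 10, peaks covering 50% of the region, other promoter windows, autosomes alone, a replicate block, other normalizations of fold and leaving out each library.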

Additional observations from a re-analysis of the deposited data

Results flagged for a closer look

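In 1 of 50 groups of 4 libraries examined, a sample lay far from the others relative to the range of the group, where chance marks about 1 in 20. This was the Cyp2a22 region, for which the centred log2 fold was 1.94, 1.92 and 1.95 in Stress 1, Stress 2 and Ethanol + stress 1 and 1.72 in Ethanol + stress 2. The spread of all 4 separated libraries was small.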

How the results depend on the processing

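The share of P450 peaks in separated against unseparated libraries kept its direction but not an exact permutation p under 0.05 with equal numbers of peaks (0.0252 points, p = 0.0571), on autosomes alone (0.0196 points, p = 0.0571) and without any separated library (0.0159 to 0.0241 points over all 8 omissions). Equal numbers of peaks turned the differences in promoter genes for Stress to -1, in gene-body genes for Stress to -0.5 and for separation to -1.25. Leaving out 1 library moved the promoter differences between -2 and 1 for Ethanol, between -0.5 and 1.5 for Stress and for Ethanol + stress, and between -0.667 and 0.417 for ethanol exposure, so these directions rested on single libraries. Counts of gained regions fell to 3, 5 and 6 with equal numbers of peaks and ran from 9 to 39, 29 to 59 and 23 to 45 when 1 library was left out, where a group of 1 library makes the call easier. Lost regions became 1, 3 and 1 with equal numbers of peaks and ran from 1 to 8, 2 to 9 and 1 to 11. With quantile normalization 1 P450 region passed limma in Ethanol, Cyp3a57 (log2 difference 1.11, adjusted p = 0.0413), and without a library 0 to 1 passed for separation, where Cyp2c37 was called without Ethanol 1. In such fits a lone library was assumed to vary like the others. On the summit tag values, directions turned for Cyp2c37 in Ethanol (0.15), Cyp3a25 in Stress (-0.073), Cyp24a1 in separation (0.043), and Cyp3a57 (-0.094) and Cyp4a32 (-0.12) in ethanol exposure. The causes were not tested.

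Whether the replicate numbers mark litters or batches is not stated. Deviations of same-numbered libraries correlated between -0.097 and 0.140 over 8901 regions, with 0.140 for Ethanol and Ethanol + stress. These correlations cannot decide whether the samples were paired. With the replicate block, the share difference for separation stayed at 0.0197 points with an exact permutation p = 0.0556, the smallest p that this block allows, and 0 P450 regions passed limma. With 2 libraries per group, unknown read depth and 1 input per group, how small a difference could be detected was not tested.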
